A study of Homo sapiens with 6 samples.

Results

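The mitochondrial ribosomal proteins are the protein subunits of the ribosome that works inside mitochondria. Members were the genes of the count table whose symbol starts with MRPL or MRPS, followed by a number and, in some, a letter A to C. This gave 78 of the 60708 genes, 49 MRPL genes named for the large subunit and 29 MRPS genes named for the small subunit. RNA-seq counts of 6 samples of Caki-1 cells, a human clear cell renal carcinoma line with wild-type VHL, were compared. The 3 VC samples (genotype WT) carried the lentiviral CRISPR vector without a guide, and the 3 VHL-KO samples carried Cas9 with a guide RNA against VHL. The VHL-KO cells had been selected with puromycin, grown out from cells seeded in 96-well plates and screened by immunoblot, so they represent clonal cells, and differences between clones cannot be told apart from loss of VHL. Between 22628246 and 34881739 reads were counted per sample.

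The mitochondrial ribosome translates the few mRNAs of mitochondrial DNA, which encode core subunits of the respiratory chain and the ATP synthase. Its rRNAs come from mitochondrial DNA, whereas all of its proteins are encoded in the nucleus, made in the cytosol and imported, so that the subunit has to be assembled from the products of both genomes. Kidney tubule cells are rich in mitochondria, and VHL, the subunit of a ubiquitin ligase, marks the HIFα transcription factors for degradation.

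The targeted gene was examined first. VHL lies at chr3:10141778-10153667 (GRCh38) and had 42.6, 37.8 and 40.1 CPM (TMM-scaled counts relative to library size) in VC replicates 1 to 3 and 34.8, 30.4 and 30.5 CPM in VHL-KO replicates 1 to 3. All VHL-KO samples were below all VC samples, with a log2 fold change of -0.33 ± 0.11 (SE, adjusted p = 0.0109, edgeR quasi-likelihood test with Benjamini-Hochberg adjustment, n = 3 per group). VHL lost the call in 5 of 15 alternatives, among them the offsets for GC content and length described below (log2 fold change -0.03, adjusted p = 0.778). Another gene on the opposite strand faces 23.5% of its exonic bases. An edit can remove the protein while leaving RNA, so this level does not measure the knockout. CA9, a HIF target and marker of clear cell carcinoma, had 0, 0 and 0.0527 CPM in VC and 10.8, 11.4 and 10.9 CPM in VHL-KO samples. Of the other renal epithelial markers, PAX8 had 440.1, 459 and 384 CPM in VC and 611, 601 and 629 CPM in VHL-KO samples. KRT8 (0.51 on the log2 scale) and KRT18 (0.37) were also called higher. MET and CDH6 were present in every sample without a call, and PAX2 had no read. EPCAM was called lower at a low level (-1.42, adjusted p = 0.00477), with 1.64, 1.04 and 1.32 CPM in VC and 0.64, 0.65 and 0.19 CPM in VHL-KO samples. With offsets for GC content and length, KRT8 (0.07) and KRT18 (-0.11) lost the call, and MET (0.43) and CDH6 (0.48) gained one. Of 10 markers of blood, endothelial, fibroblast and muscle cells, 3 passed the filter on low counts and 2 had 0 reads in every sample. Their summed level was 43.4, 47.5 and 37.2 CPM in VC and 30.4, 27.8 and 26.1 CPM in VHL-KO samples, most of it from COL1A1, a collagen gene, which fell by 0.42 on the log2 scale. PDGFRB, a marker of pericytes and fibroblasts, also fell (-1.94, adjusted p = 7.66e-09). The endothelial marker PECAM1 was called higher from few reads, 1, 5 and 0 in VC against 14, 7 and 9 in VHL-KO (2.73, adjusted p = 0.0117), while PTPRC, CD3E, HBB and CDH5 had at most 1 read in any sample. The part of this difference in the results below was not tested.

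The promoters of the members were searched for short motifs, which the choice of members did not use. RefSeq promoter windows of 300 bases (GRCh38.p14, 250 bases before to 50 bases after the start) were matched by symbol for 69 members, 42 MRPL and 27 MRPS genes. Both strands were searched for the ETS motif CCGGAAG, bound by GABPA among others, the YY1 motif ATGGCGGC, the NRF-1 core GCATGCGC, the hypoxia response element core ACGTG and the E-box CACGTG, which holds ACGTG. The windows of 6 members with large changes whose window holds at least 1 of these motifs are printed 5′ to 3′ on the strand of the gene. Matches to any of the motifs are in capitals. MRPL39, which fell more than MRPL18, and MRPS6 and MRPS17, which rose more than MRPS21, had no match and are not printed. Among windows with a match, the 3 largest MRPL falls are at chr2:75646533-75646832 (plus strand) for MRPL19, chr3:131502922-131503221 (minus strand) for MRPL3 and chr6:159790217-159790516 (plus strand) for MRPL18. The largest MRPS fall is at chr5:44808697-44808996 (plus strand) for MRPS30. The 2 MRPS rises are at chr7:43869468-43869767 (minus strand) for MRPS24 and chr1:150293611-150293910 (plus strand) for MRPS21.
MRPL19: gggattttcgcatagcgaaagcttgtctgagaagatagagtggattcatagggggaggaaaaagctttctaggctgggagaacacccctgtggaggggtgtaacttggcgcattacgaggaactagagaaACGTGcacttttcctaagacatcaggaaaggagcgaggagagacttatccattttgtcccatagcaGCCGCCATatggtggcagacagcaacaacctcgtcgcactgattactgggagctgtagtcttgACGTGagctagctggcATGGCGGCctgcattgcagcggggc
MRPL3: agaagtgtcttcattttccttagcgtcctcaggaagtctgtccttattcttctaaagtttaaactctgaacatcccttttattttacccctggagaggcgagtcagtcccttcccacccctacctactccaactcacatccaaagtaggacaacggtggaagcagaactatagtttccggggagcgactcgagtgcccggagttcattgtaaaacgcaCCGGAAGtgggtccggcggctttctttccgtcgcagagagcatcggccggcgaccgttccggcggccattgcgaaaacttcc
MRPL18: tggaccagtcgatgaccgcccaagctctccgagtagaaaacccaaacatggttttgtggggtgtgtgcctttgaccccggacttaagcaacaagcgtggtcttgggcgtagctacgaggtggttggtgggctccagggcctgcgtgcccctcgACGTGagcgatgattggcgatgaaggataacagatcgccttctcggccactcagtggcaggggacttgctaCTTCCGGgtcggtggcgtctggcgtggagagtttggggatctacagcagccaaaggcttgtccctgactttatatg
MRPS30: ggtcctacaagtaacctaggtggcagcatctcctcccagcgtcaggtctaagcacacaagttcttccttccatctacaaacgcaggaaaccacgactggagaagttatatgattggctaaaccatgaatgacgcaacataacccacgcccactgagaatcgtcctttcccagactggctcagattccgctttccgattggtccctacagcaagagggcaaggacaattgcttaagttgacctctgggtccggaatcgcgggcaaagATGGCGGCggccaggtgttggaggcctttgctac
MRPS24: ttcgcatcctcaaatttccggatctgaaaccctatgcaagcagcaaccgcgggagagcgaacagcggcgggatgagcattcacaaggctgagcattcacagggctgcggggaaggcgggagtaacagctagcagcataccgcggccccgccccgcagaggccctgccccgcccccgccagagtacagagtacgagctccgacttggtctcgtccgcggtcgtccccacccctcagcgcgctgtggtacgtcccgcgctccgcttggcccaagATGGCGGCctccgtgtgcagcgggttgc
MRPS21: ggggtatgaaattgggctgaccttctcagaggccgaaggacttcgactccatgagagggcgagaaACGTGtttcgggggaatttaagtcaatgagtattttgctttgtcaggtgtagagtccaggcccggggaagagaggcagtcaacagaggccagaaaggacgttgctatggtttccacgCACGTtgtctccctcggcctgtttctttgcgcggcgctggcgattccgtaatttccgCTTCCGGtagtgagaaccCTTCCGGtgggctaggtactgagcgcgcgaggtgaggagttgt

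The ETS motif was in 18 of 42 MRPL windows (42.9%) and 12 of 27 MRPS windows (44.4%), beside 10.9% of the windows of all 27305 genes and 19.0% of those of tested genes. For YY1 the shares were 23.8% of MRPL and 33.3% of MRPS windows, beside 3.33% of all windows and 6.31% of those of tested genes. Of 20 YY1 matches in members, 17 began within the first 50 bases of the transcript and 17 read in the direction of the gene, as in MRPL19, MRPS30 and MRPS24 above; the motif begins with the letters of a start codon. NRF-1 (8.70% of members, 3.35% of all windows and 5.59% of those of tested genes), the hypoxia response element core (30.4%, 21.7% and 26.7%) and the E-box (7.25%, 7.43% and 9.91%) differed less. At least 1 of the ETS, YY1 and NRF-1 motifs was in 46 of 69 member windows (66.7%, beside 15.9% of all windows and 27.6% of those of tested genes), in 9 of 16 members that rose, 18 of 26 that fell and 18 of 26 that did not pass the threshold. Among members that rose, fell and were not called, the YY1 motif was in 2 of 16, 10 of 26 and 7 of 26, the ETS motif in 6 of 16, 10 of 26 and 13 of 26, and the hypoxia response element core in 6 of 16, 7 of 26 and 8 of 26. A match is a description of the letters, and binding was not measured.

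**Figure D1:**
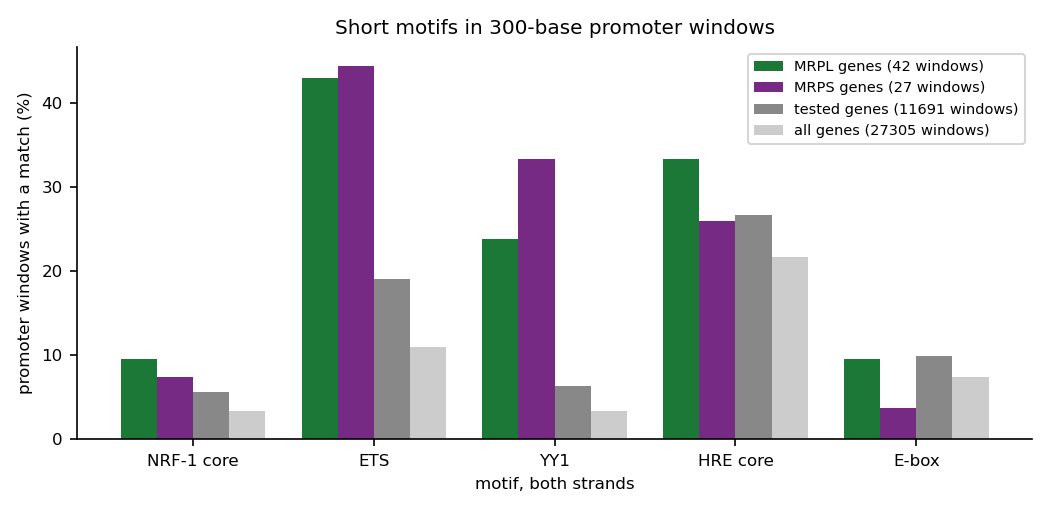
Share of promoter windows (%, y axis) that hold each motif on either strand (x axis), for MRPL genes, MRPS genes, tested genes and all genes. The bars of MRPL and MRPS genes stand at 42.9% and 44.4% for the ETS motif and at 23.8% and 33.3% for YY1, above 10.9% and 3.33% of all windows and 19.0% and 6.31% of those of tested genes.

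The question here is how RNA of the mitochondrial ribosome differs between VC and VHL-KO cells. Both subunits showed changes in both directions, most of them small. Of 49 MRPL genes, 48 passed the filter of at least 10 reads in any sample, and 12 were higher and 19 lower in VHL-KO cells (adjusted p under 0.05). Of all 17401 tested genes, 28.5% were higher and 31.2% lower, so the 25.0% of MRPL genes that were higher were near this background and the 39.6% that were lower were above it. Without VC replicate 1 or without VHL-KO replicate 2, only 7 MRPL genes (14.6%) were higher, beside 25.5% and 26.3% of all tested genes. In these 2 fits 33.3% and 35.4% of MRPL genes were lower, beside 28.0% and 28.9% of all tested genes. All 29 MRPS genes were tested, and 6 (20.7%) were higher and 12 (41.4%) lower. The median log2 fold change was -0.11 for MRPL genes and -0.14 for MRPS genes, beside -0.01 for all tested genes and -0.11 for the 8447 genes with a mean of at least 10 CPM, of which 31.3% were higher and 42.2% lower. These are values with TMM scaling, and those with offsets for GC content and length, given below, differ. p-values measure only the spread between these samples, which may be technical, and in RNA from whole cultures fewer cells with a transcript and less of it per cell cannot be told apart.

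The split of calls moved with the scaling. With upper quartile factors, which moved the median of all genes by 0.11, 15 MRPL genes were higher and 15 lower and 7 MRPS genes were higher and 7 lower (32.8% and 26.8% of all tested genes), and the MRPL median turned to 0.002. With library size alone, which moved the median of all genes by -0.19, 4 MRPL genes were higher and 25 lower and 4 MRPS genes were higher and 21 lower (21.6% and 38.7% of all tested genes). Scaling moves every gene alike, so it leaves the distance to the median of all tested genes, -0.10 for MRPL and -0.13 for MRPS genes with TMM scaling, nearly as it is. Other settings moved this distance, for MRPL genes to -0.05 where every sample had to reach 10 reads and to -0.30 with offsets for GC content and length. Without a scaling-free measure, the direction of the whole set in absolute terms was not determined.

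Only 6 of 77 tested members (7.79%) changed at least 2-fold with an adjusted p under 0.05, beside 26.2% of all tested genes and 19.4% of those with a mean of at least 10 CPM. The groups did not overlap in 55 of 77 tested members, beside 11253 of 17401 tested genes (64.7%) and 6495 of the 8447 with a mean of at least 10 CPM. They also did not overlap in any of the 49 members that passed the threshold. The summed level of the MRPL genes was 2989, 3099 and 2928 CPM in VC and 2857, 2832.5 and 2677 CPM in VHL-KO samples. That of the MRPS genes was 1944, 2004 and 1902 CPM in VC and 1894, 1861 and 1760.3 CPM in VHL-KO samples. Every VHL-KO sum lay below every VC sum in both sets with TMM scaling, at log2 ratios of the means of -0.11 for MRPL and -0.09 for MRPS genes, but with upper quartile factors the groups overlapped and the ratios turned to 0.004 and 0.03. With relative log expression factors the MRPS groups also overlapped (ratio -0.06), while the MRPL groups stayed apart (-0.08). With library size alone the groups stayed apart in both sets, at ratios of -0.30 for MRPL and -0.28 for MRPS genes.

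**Figure D2:**
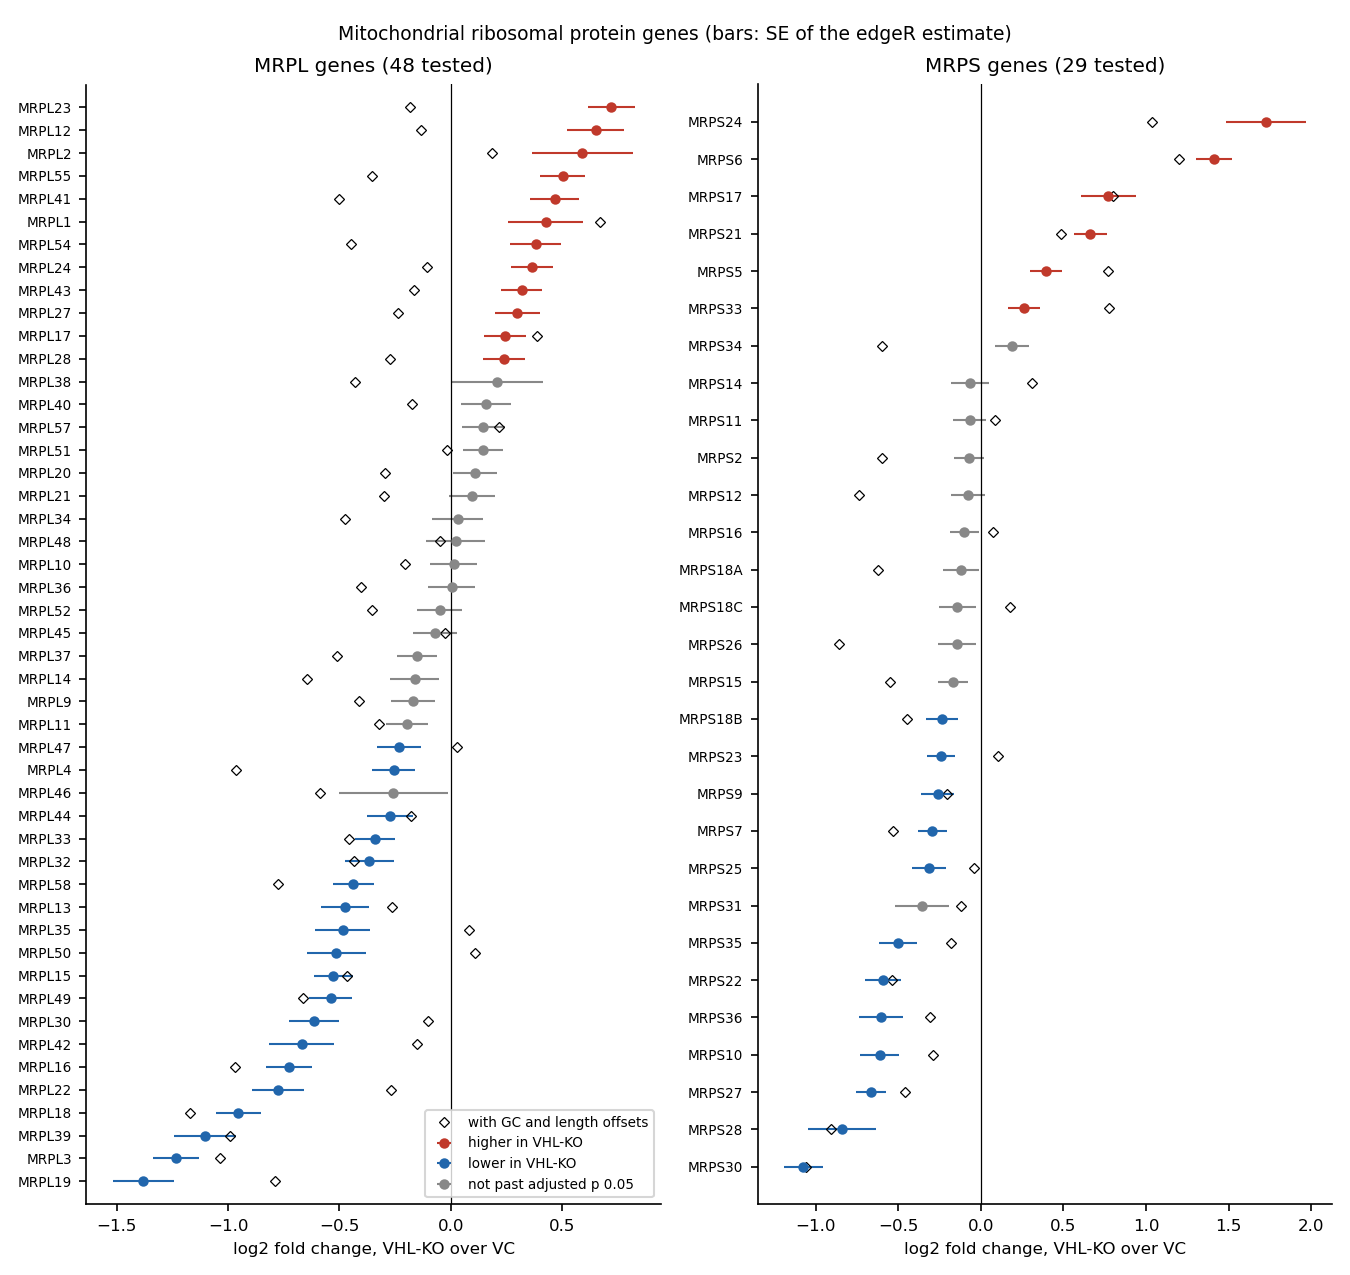
Log2 fold change of VHL-KO over VC (x axis) for each tested MRPL gene (left) and MRPS gene (right), with bars for the SE. Filled points are coloured by the call at an adjusted p of 0.05, and open diamonds give the estimate with offsets for GC content and length. MRPL genes reach from -1.38 for MRPL19 to 0.72 for MRPL23 and MRPS genes from -1.07 for MRPS30 to 1.73 for MRPS24; with the offsets the open diamonds of most MRPL genes that rose lie below 0.

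Levels between genes were compared per kilobase of the canonical transcript. The most abundant MRPL genes were MRPL41 (225 CPM per kb over all samples), MRPL33 (214) and MRPL51 (171), and the least abundant of those tested were MRPL42 (1.53), MRPL46 (2.04) and MRPL38 (2.69). Among MRPS genes MRPS7 (198), MRPS15 (108) and MRPS34 (99.5) were highest and MRPS17 (3.91), MRPS28 (4.51) and MRPS24 (4.62) lowest. Proteins that stand in equal number in the finished ribosome thus had RNA levels that differed by over 50 times within each set of symbols. These levels rest on the annotated length, as for MRPL42, which averaged 23.7 CPM over a transcript of 15557 bases. A part of read assignment in these levels was not tested. Of 7 tested members with a mean under 10 CPM, 6 had over 10% of their exonic bases inside another gene on the same strand, as did 7 of the other 70 tested members. MRPL53 had 0 reads in every sample, which allows up to 3 counts or 0.141 CPM in the shallowest sample. On the same strand 72.8% of its exonic bases lie inside another gene, CCDC142, and 79.4% face a gene on the opposite strand. The counting mode and strandedness of the counts are not given in the sources used here, so MRPL53 was not detectable by these counts, and its RNA may have been left unassigned.

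Among MRPL genes the largest falls were in MRPL19, MRPL3, MRPL39 and MRPL18. MRPL19, a protein with a bacterial counterpart at the interface of the subunits, had 40.7, 31.4 and 48.4 CPM in VC and 14.3, 15.4 and 16.7 CPM in VHL-KO samples. Each VHL-KO sample was less than the lowest VC sample, replicate 2, and the log2 fold change was -1.38 ± 0.14 (SE, adjusted p = 6.34e-09). Its annotated transcript is long, 7825 bases, with 37.0% GC and 19.5% of its exonic bases inside a gene of the same strand that had 0 counts in every sample, and with offsets for GC content and length the log2 fold change was -0.79. MRPL3, whose bacterial counterpart reaches towards the peptidyl transferase centre, had 91.2, 86.6 and 108 CPM in VC and 41.7, 41.3 and 38.7 CPM in VHL-KO samples. The VHL-KO samples lay close together and well below VC, with a log2 fold change of -1.23 ± 0.10 (adjusted p = 2.87e-10). MRPL39, a subunit without a bacterial counterpart that is related to threonyl-tRNA synthetase, had 28.0, 22.3 and 31.3 CPM in VC and 11.4, 14.5 and 12.1 CPM in VHL-KO samples. The groups were apart, by -1.10 ± 0.14 on the log2 scale (adjusted p = 3.21e-07). MRPL18, which sits in the central protuberance of the large subunit, had 60.1, 60.4 and 60.1 CPM in VC and 32.1, 32.2 and 28.9 CPM in VHL-KO samples. Here the VC samples were nearly equal, and the log2 fold change was -0.95 ± 0.10 (adjusted p = 1.7e-08).

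Falls of a smaller size followed in MRPL22, a protein of the peptide exit tunnel, with 38.7, 35.5 and 37.3 CPM in VC and 22.9, 23.4 and 18.8 CPM in VHL-KO samples, and in MRPL16, with 53.8, 52.9 and 50.9 CPM in VC and 34.1, 31.4 and 29.5 CPM in VHL-KO samples. All VHL-KO samples were below all VC samples in both, and the log2 fold changes were -0.78 ± 0.12 and -0.73 ± 0.10, or -0.27 and -0.97 with offsets for GC content and length. MRPL42 (-0.67 ± 0.15) and MRPL30 (-0.62 ± 0.11) completed the 8 largest falls, and both lost the call with offsets for GC content and length, with the adjusted p reaching 0.236 and 0.249. Of the 19 MRPL genes that fell, 11 kept the call in the same direction in all 15 alternatives.

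The MRPL genes that rose did so by less. MRPL23, another protein at the exit of the peptide tunnel, had 37.1, 40.9 and 32.6 CPM in VC and 60.5, 61.9 and 59.9 CPM in VHL-KO samples. The groups were clearly apart, by 0.72 ± 0.10 on the log2 scale (adjusted p = 2.11e-06). With offsets for GC content and length, however, MRPL23 was called lower (-0.18, adjusted p = 0.0236). MRPL12, the stalk protein that binds translation factors, had 24.5, 32.4 and 23.4 CPM in VC and 41.3, 47.8 and 37.0 CPM in VHL-KO samples (log2 fold change 0.65 ± 0.13, adjusted p = 0.000118). VC replicate 2 was the highest of its group but still below each VHL-KO sample, and 69.5% of the exonic bases of MRPL12 lie inside a read-through gene of the same strand, which itself had 0 counts in every sample. MRPL41, without a bacterial counterpart, had 105, 132 and 92.6 CPM in VC and 157, 159 and 139 CPM in VHL-KO samples. The highest VC sample and the lowest VHL-KO sample were near each other, and the log2 fold change was 0.47 ± 0.11 (adjusted p = 0.000693). It too was called lower with the offsets (-0.50, adjusted p = 4.29e-07). MRPL55, which has a bacterial counterpart, had 47.9, 53.8 and 44.02 CPM in VC and 70.1, 71.5 and 64.8 CPM in VHL-KO samples (0.50 ± 0.10, adjusted p = 0.000152), and was called lower with the offsets (-0.35, adjusted p = 5.75e-05). MRPL2, MRPL1, MRPL54 and MRPL24 rose by 0.59 ± 0.23, 0.43 ± 0.17, 0.38 ± 0.11 and 0.37 ± 0.09 on the log2 scale, MRPL2 and MRPL1 from mean levels of 3.11 and 7.71 CPM in VC. MRPL2 had 2.72, 3.399 and 3.21 CPM in VC and 3.82, 6.63 and 3.66 CPM in VHL-KO samples, and its call was lost without VHL-KO replicate 2, the highest (0.27, adjusted p = 0.327), and with offsets for GC content and length (0.19, adjusted p = 0.467). The call of MRPL1 was lost in 6 of the 15 alternatives. None of the 12 MRPL genes that rose kept the call in all 15 alternatives, and 9 of them changed sign in at least 1, all of these with the offsets for GC content and length. Among these, MRPL54 was at -0.45, MRPL12 at -0.13 and MRPL24 at -0.11 with the offsets.

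**Figure D3:**
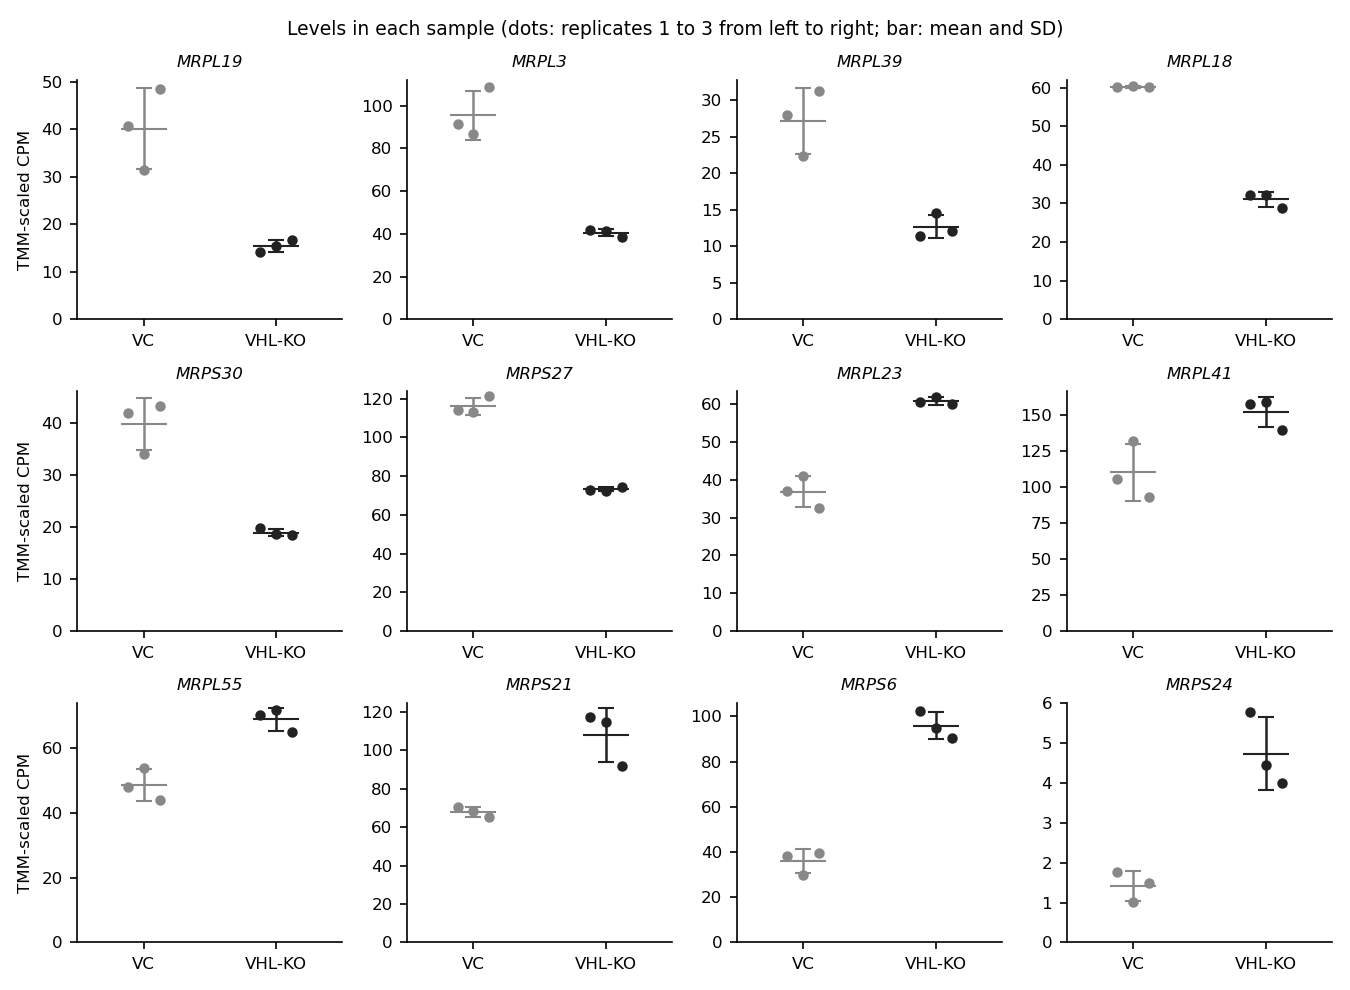
TMM-scaled CPM (y axes, each from 0) in the VC and VHL-KO samples for 6 members that fell and 6 that rose; dots are replicates 1 to 3 from left to right, and bars show the mean and SD. In each of the 12 genes the groups do not overlap, from MRPL19 (31.4 to 48.4 CPM in VC, 14.3 to 16.7 in VHL-KO) to MRPS24 (1.01 to 1.76 in VC, 3.99 to 5.76 in VHL-KO).

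Among MRPS genes the largest fall was in MRPS30, a protein that in spite of its name belongs to the large subunit. It had 42.03, 34.2 and 43.3 CPM in VC and 19.7, 18.6 and 18.4 CPM in VHL-KO samples. Every VHL-KO sample was far below the lowest VC sample, and the log2 fold change was -1.07 ± 0.12 (adjusted p = 3.4e-08), or -1.06 with offsets for GC content and length. MRPS28 had 5.01, 5.25 and 4.29 CPM in VC and 2.66, 3.20 and 2.25 CPM in VHL-KO samples (-0.84 ± 0.21, adjusted p = 0.0011), with 35.8% of its exonic bases inside a read-through gene. MRPS27, a pentatricopeptide repeat protein without a bacterial counterpart, had 114, 113 and 121 CPM in VC and 73.0, 72.3 and 74.3 CPM in VHL-KO samples. Replicates were close in both groups, and the log2 fold change was -0.67 ± 0.09 (adjusted p = 7.63e-07). MRPS10 (-0.61 ± 0.12), MRPS22 (-0.59 ± 0.11), MRPS35 (-0.50 ± 0.11) and MRPS25 (-0.32 ± 0.10) followed, without overlap of the groups in any of them. With offsets for GC content and length these were -0.29, -0.54, -0.18 and -0.04, and MRPS25 lost the call (adjusted p = 0.668); in MRPS22 42.8% and in MRPS25 39.1% of the exonic bases face another gene on the opposite strand. MRPS36, now assigned to the oxoglutarate dehydrogenase complex and not to the ribosome, had 23.6, 19.4 and 24.9 CPM in VC and 15.5, 15.3 and 13.8 CPM in VHL-KO samples (-0.60 ± 0.13, adjusted p = 0.000349, and -0.31 with the offsets).

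Rises among MRPS genes were fewer and included the largest of all members. MRPS6, a protein with a bacterial counterpart at the platform of the small subunit, had 38.4, 29.8 and 39.6 CPM in VC and 102, 95.1 and 90.2 CPM in VHL-KO samples. The lowest VHL-KO sample was more than 2 times the highest VC sample, and the log2 fold change was 1.41 ± 0.11 (adjusted p = 7.59e-11). SLC5A3, a myo-inositol transporter gene that overlaps MRPS6, had 15.9, 13.4 and 21.9 CPM in VC and 13.7, 17.9 and 17.9 CPM in VHL-KO samples, with overlapping groups (log2 fold change -0.06, adjusted p = 0.774), but with offsets for GC content and length it was called higher (0.48, adjusted p = 0.000908). MRPS24, which lines the mRNA entry of the small subunit, had 1.76, 1.01 and 1.502 CPM in VC and 5.76, 4.45 and 3.99 CPM in VHL-KO samples (1.73 ± 0.24, adjusted p = 1.17e-06, and 1.04 with the offsets). The groups were apart at a low level, 23.2% of the exonic bases lie inside the read-through gene URGCP-MRPS24, and that gene had 0 counts in every sample. MRPS17 had 5.62, 4.61 and 5.22 CPM in VC and 9.13, 9.13 and 8.16 CPM in VHL-KO samples (0.77 ± 0.17, adjusted p = 0.00029), and 25.0% of its exonic bases lie inside other genes of its strand. MRPS21, with no such overlap, had 70.6, 68.3 and 65.2 CPM in VC and 117, 114 and 91.6 CPM in VHL-KO samples. VHL-KO replicate 3 was the lowest of its group and still above VC, and the log2 fold change was 0.66 ± 0.10 (adjusted p = 4.29e-06). MRPS5 (0.40 ± 0.10, or 0.77 with the offsets) and MRPS33 (0.26 ± 0.10, or 0.77 with them) completed the 6 rises, of which 4, in MRPS6, MRPS24, MRPS17 and MRPS21, kept the call in all 15 alternatives, as did 7 of the 12 falls.

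The 3 MRPS18 genes encode homologs of a single bacterial protein, of which MRPS18A is built into the large subunit and MRPS18B and MRPS18C into the small subunit. MRPS18A had 40.0, 47.1 and 37.1 CPM in VC and 40.6, 37.2 and 36.4 CPM in VHL-KO samples, with overlapping groups (log2 fold change -0.12 ± 0.11, adjusted p = 0.368), and was called lower with offsets for GC content and length (-0.62, adjusted p = 3.34e-07). MRPS18B had 63.8, 71.0 and 64.0 CPM in VC and 55.8, 57.7 and 55.3 CPM in VHL-KO samples (-0.24 ± 0.10, adjusted p = 0.038), a call that 9 of the 15 alternatives did not give and that stood with the offsets (-0.45, adjusted p = 4.34e-06). MRPS18C had 23.6, 25.3 and 25.4 CPM in VC and 22.57, 22.7 and 22.1 CPM in VHL-KO samples (-0.14 ± 0.11, adjusted p = 0.299, and 0.18 with offsets for GC content and length).

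When members were grouped by structure and not by symbol, with MRPS30 and MRPS18A in the large subunit and MRPS36 in neither, 12 of 50 large-subunit genes were higher (24.0%) and 20 lower (40.0%), and 6 of 26 small-subunit genes were higher (23.1%) and 10 lower (38.5%), beside 28.5% and 31.2% of all tested genes and 31.3% and 42.2% of those averaging 10 CPM or more. Median log2 fold changes were -0.14 in both with TMM scaling, and -0.31 (large) and -0.15 (small) with offsets for GC content and length, where 3 large-subunit genes were higher and 34 lower and 7 small-subunit genes were higher and 13 lower (29.1% and 31.1% of all tested genes). Members were also split by the nomenclature of ribosomal proteins, which keeps the bacterial name for MRPS18C and lists MRPS18A and MRPS18B, although homologs of the same protein, among the proteins specific to mitochondria. Of 46 members with a bacterial name 14 were higher (30.4%) and 17 lower (37.0%, median -0.09), and of the 30 tested members listed as specific 4 were higher (13.3%) and 13 lower (43.3%, median -0.19); with the offsets these medians were -0.27 and -0.39. The 5 ribosomal proteins with other symbols varied as well. PTCD3, a small-subunit protein near the mRNA entry, had 50.9, 41.97 and 50.9 CPM in VC and 35.6, 33.1 and 33.8 CPM in VHL-KO samples (-0.49 ± 0.11, adjusted p = 0.000416), a call lost with offsets for GC content and length (-0.08, adjusted p = 0.366). DAP3, a GTP-binding protein of the small subunit, fell by 0.23 ± 0.09 (adjusted p = 0.0254), a call that 7 of the 15 alternatives did not give. GADD45GIP1, a large-subunit protein at the tunnel exit, had 102, 129 and 87.6 CPM in VC and 141, 144 and 118 CPM in VHL-KO samples, with VC replicate 2 above VHL-KO replicate 3 (0.34 ± 0.12, adjusted p = 0.0151, and -0.13 with the offsets). AURKAIP1 (0.15 ± 0.10, or -0.04 with library size alone) and CHCHD1 (-0.06 ± 0.10, or 0.06 with upper quartile factors) did not pass the threshold with TMM scaling, and both were called lower with the offsets (-0.73 and -0.28, adjusted p = 5.83e-10 and 0.00301).

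The log2 fold change of members went in part with the base composition of the transcript, more closely among MRPL than among MRPS genes. Across the 77 tested members its Spearman correlation with GC content was 0.54. It was 0.65 for the 48 MRPL genes and 0.39 for the 29 MRPS genes. Of the 6 MRPS rises, MRPS24 had 57.4% GC and the others had 41.4% (MRPS33) to 47.9% (MRPS21). Across the 8444 genes with a mean of at least 10 CPM and a known GC content the correlation was 0.44. These are correlations across genes of the same 6 libraries, and genes are not independent replicates. The 18 members with under 42% GC had a median of -0.49, beside -0.54 for all genes of that GC content with a mean of at least 10 CPM. The 9 members with at least 60% GC had a median of 0.38, beside 0.40 for all genes of that GC content with a mean of at least 10 CPM. Members thus followed the trend of all genes in their class of GC content.

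With offsets for each library that took out how its counts vary with GC content and the length of the transcript, 3 MRPL genes were higher and 32 lower (29.1% and 31.1% of all tested genes, and 2784 and 3653 of the 8447 averaging 10 CPM or more, with a median of -0.08), with a median of -0.30, and 7 MRPS genes were higher and 16 lower, with a median of -0.21. Of the 12 MRPL genes that rose, 2 stayed higher, 3 passed no threshold and 7 were lower with the offsets. Of the 19 that fell, 14 were lower with the offsets and 5 passed no threshold. The 6 MRPS rises were all called higher with the offsets, and 10 of the 12 MRPS falls were called lower. The offsets also take out any change in the cells that follows GC content or transcript length. Among the members they turned the correlation with GC content to -0.31, so neither estimate is free of base composition. With TMM scaling the Spearman correlation of the members' log2 fold change with transcript length was -0.37. The shares of GC content and length in the shift were not separated, and a part of library preparation in the trend was not tested.

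**Figure D4:**
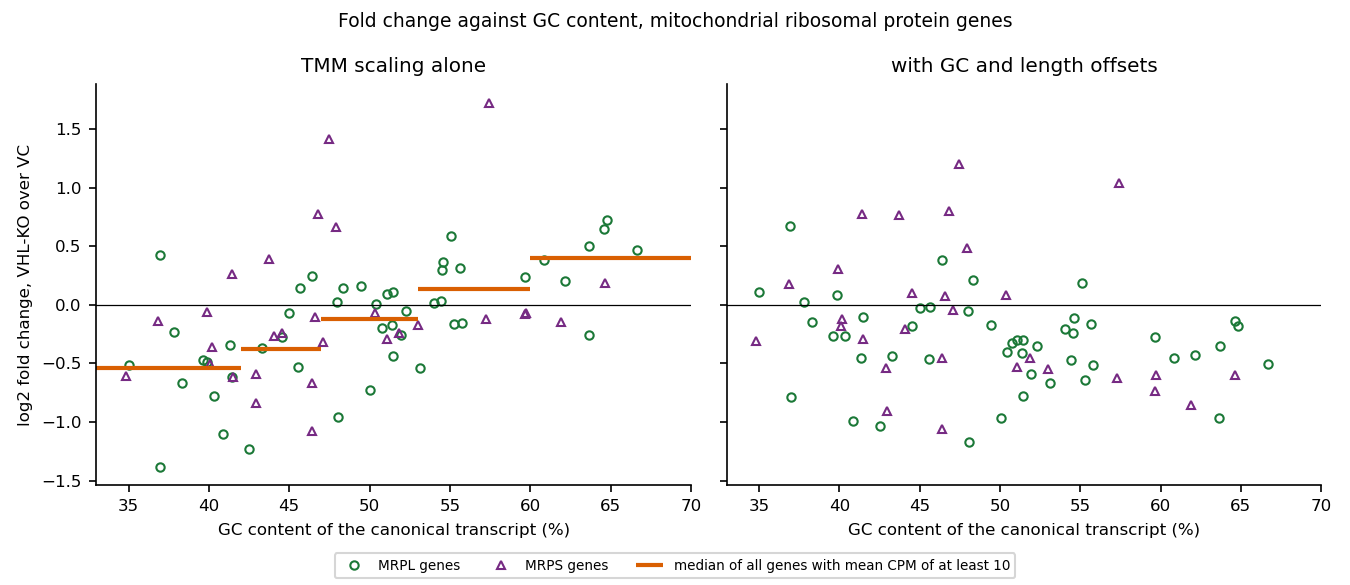
Log2 fold change (y axis) against GC content of the canonical transcript (x axis, %) for MRPL genes (circles) and MRPS genes (triangles), with TMM scaling alone (left) and with offsets for GC content and length (right). Orange lines are medians of genes averaging 10 CPM or more by class of GC content, which run from -0.54 under 42% to 0.40 from 60% up. On the left the medians of members run from -0.49 to 0.38 in these 2 classes. On the right most MRPL genes lie below 0.

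By chromosome, shares are given of the genes averaging 10 CPM or more. On chromosome 5, where 21.5% of 353 such genes were higher and 58.1% lower, 4 of 5 tested members were lower (MRPS30, MRPS27, MRPS36 and MRPL22). Chromosomes 2 (24.8% higher, 50.6% lower), 3 (29.5% and 42.2%) and 8 (30.7% and 46.99%) had 6 of 7, 4 of 4 and 3 of 3 members lower. On chromosome 7 (41.2% and 31.0%) 3 of 4 members were higher. In contrast, on chromosome 1 (27.5% and 45.5%) 3 of 8 members were higher and none lower, on chromosomes 4 (25.8% and 51.3%) and 10 (27.6% and 50.3%) 1 of 2 members each was higher and none lower, and on chromosome 13 (21.99% and 58.2%) neither of 2 members was called. Copy number of the clonal cells was not analysed here.

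The rRNAs of the ribosome itself were higher in VHL-KO cells: MT-RNR2, the large-subunit rRNA, had 9334, 7626 and 10034 CPM in VC and 17190, 15576 and 16702 CPM in VHL-KO samples (log2 fold change 0.87 ± 0.09, adjusted p = 1.46e-08). MT-RNR1, the small-subunit rRNA, had 1722.5, 2294 and 1827 CPM in VC and 2709.9, 2800.1 and 3564.5 CPM in VHL-KO samples (0.63 ± 0.11, adjusted p = 1.82e-05). The groups did not overlap in either, and the shares of rRNA left by library preparation were not measured. Of 13 mRNAs of mitochondrial DNA, 10 were higher and 2 lower (28.5% and 31.2% of all tested genes), with a median of 0.70. MT-ND3 (1.49 ± 0.10) and MT-CO2 (1.11 ± 0.09) rose most, and MT-ATP8 (-1.65 ± 0.21) and MT-ND4L (-0.72 ± 0.12), which share transcripts and bases with MT-ATP6 and MT-ND4, fell.

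Nuclear genes that act with these ribosomes were examined next. Of 17 mitochondrial translation factors and related proteins, 14 were lower (82.4%) and 2 higher (11.8%, median -0.52), and of 19 tested mitochondrial tRNA synthetases and amidotransferase subunits 10 were lower (52.6%) and 1 higher (5.26%, median -0.39), beside 31.2% lower and 28.5% higher among all tested genes. With offsets for GC content and length 10 translation factors were lower and 2 higher, and 8 synthetase genes were lower and 4 higher (31.1% and 29.1% of all tested genes). GFM1, an elongation factor, had 40.7, 39.4 and 49.7 CPM in VC and 16.2, 15.2 and 17.5 CPM in VHL-KO samples (-1.41 ± 0.12, adjusted p = 4.76e-10). The groups were far apart, whereas TSFM (-1.83 ± 0.74, adjusted p = 0.0371), another elongation factor, had at most 0.527 CPM in any sample, 67.3% of its exonic bases inside a gene of the same strand, and a call that 9 of 14 alternatives did not give. With offsets for GC content and length GFM1 was at -0.87. MTIF3, an initiation factor, went the other way, with 14.1, 11.5 and 13.04 CPM in VC and 25.5, 27.5 and 22.7 CPM in VHL-KO samples (0.97 ± 0.13, adjusted p = 7.03e-07), and the release factor C12orf65 (MTRFR) rose by 0.32 ± 0.11, a call that 4 of the 15 alternatives did not give. Among synthetases MARS2 fell from 8.99, 9.42 and 10.9 CPM in VC to 2.06, 2.73 and 2.86 CPM in VHL-KO samples (-1.94 ± 0.19, adjusted p = 3.53e-09), NARS2 fell (-1.499 ± 0.13) and CARS2 rose (0.53 ± 0.09, or 0.25 with the offsets). Of 26 tested assembly and rRNA modification factors, 9 were lower (34.6%, near the 31.2% of all tested genes) and 3 higher (11.5%), with a median of -0.11, or 0.003 with upper quartile factors. With a replicate left out 1 to 4 were higher and the median ranged from -0.206 to -0.058, and with offsets for GC content and length 13 were lower and 7 higher (median -0.24). The genes at the ends were MTERF3 (-0.93 ± 0.15) and MPV17L2 (-0.84 ± 0.15) as the largest falls and MTG1 (0.60 ± 0.14) and YBEY (0.46 ± 0.20) as the largest rises, the call of YBEY being lost in 10 of the 15 alternatives (0.01 with offsets for GC content and length).

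Of 10 genes for factors of mitochondrial gene expression, 9 that are known for promoters of nuclear genes or as their coactivators and TFAM, 9 were lower and 1 higher (28.5% of all tested genes were higher and 31.2% lower), with a median of -0.82. TFAM, which packages and transcribes mitochondrial DNA, had 30.2, 23.4 and 39.1 CPM in VC and 9.36, 10.2 and 9.90 CPM in VHL-KO samples (-1.66 ± 0.16, adjusted p = 1.93e-09, and -0.998 with the offsets), without overlap and in the opposite direction to the mitochondrial rRNAs. The coactivator PPARGC1B fell (-1.51 ± 0.19) and PPARGC1A rose (1.13 ± 0.23) from 1.85, 1.95 and 2.11 CPM in VC to 3.59, 5.70 and 3.71 CPM in VHL-KO samples. Factors of the ETS, YY1 and NRF-1 motifs, named after their values were seen, also fell: GABPA (-1.29 ± 0.23), YY1 (-0.45 ± 0.10) and NRF1 (-0.39 ± 0.13). With offsets for GC content and length these 3 were at -0.63, -0.22 and -0.21, and NRF1 lost the call (adjusted p = 0.0846).

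Genes of the cytosolic ribosome and of the respiratory chain were examined for comparison. Of 83 tested cytosolic ribosomal protein genes, 63 were higher (75.9%) and 3 lower (3.61%, median 0.49). Of 75 nuclear genes for respiratory chain and ATP synthase subunits, 40 were higher (53.3%) and 11 lower (14.7%, median 0.38). Among all tested genes 28.5% were higher and 31.2% lower. The medians of both lists stayed above 0 under the 4 scalings. With offsets for GC content and length they were 0.15 and -0.01, with 43 of the cytosolic ribosomal protein genes higher and 19 lower and 29 of the respiratory chain genes higher and 26 lower (29.1% and 31.1% of all tested genes). The medians of the translation factors, synthetases and promoter factors stayed below 0 under the same scalings and with the offsets, at -0.37, -0.14 and -0.68 with the offsets. No test of a difference between these lists was made.

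**Figure D5:**
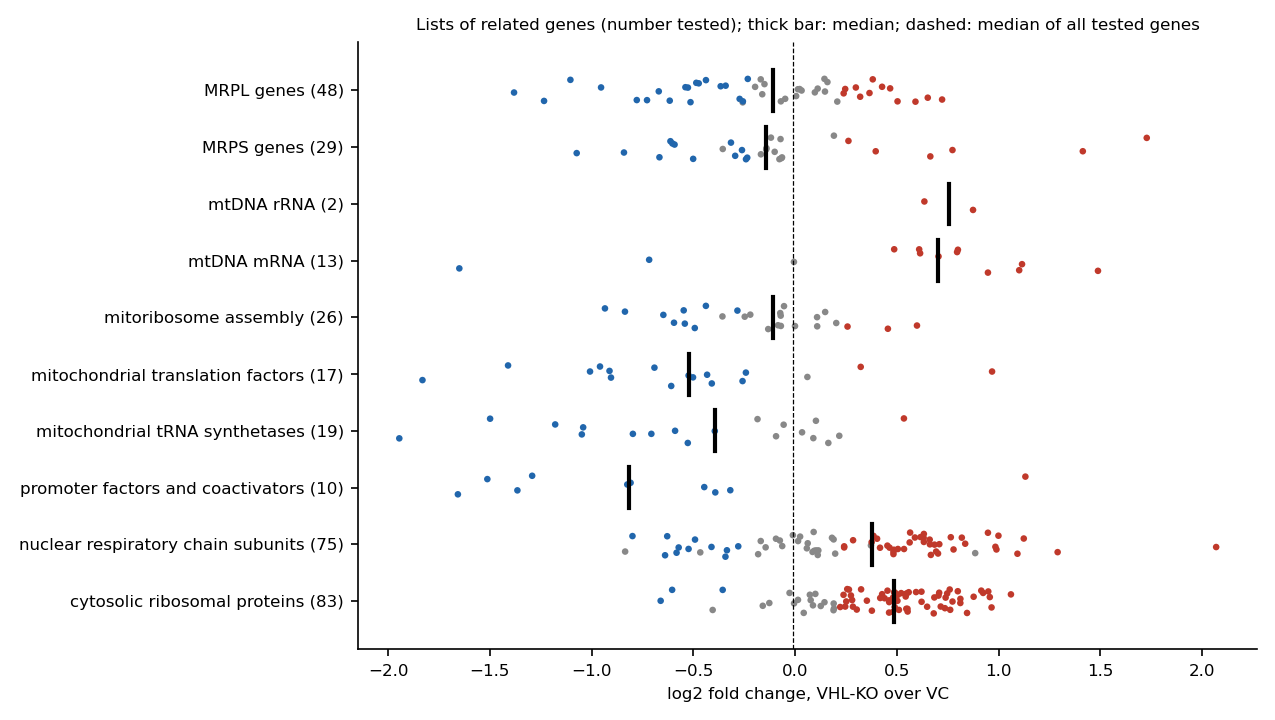
Log2 fold change of VHL-KO over VC (x axis) for the tested genes of each list (y axis, number tested in brackets); red and blue dots are genes higher and lower at an adjusted p of 0.05, grey dots are the others, thick bars are medians and the dashed line is the median of all tested genes. MRPL and MRPS genes lie around their medians of -0.11 and -0.14, translation factors and promoter factors at -0.52 and -0.82, and mitochondrial mRNAs and cytosolic ribosomal proteins at 0.70 and 0.49.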

How the data were processed

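Trizol was used to isolate total RNA of the Caki-1 cells, and a NovaSeq instrument read the libraries. Per the study's methods and the submitters' processing notes, reads were trimmed with Trim Galore and Cutadapt, aligned with STAR to GRCh38.p13, reduced to unique mappers with SAMtools and counted per gene with HTSeq. The authors deposited these raw counts, without normalization. Annotation release, strandedness, counting mode and tool versions are not given in the sources used here. Between 22628246 and 34881739 reads were counted per sample, and 0 counts allow up to 3, or 0.079 to 0.141 CPM. This covers counting error only. Reads lost to several mapping places lower genes with close copies: 36 members have named pseudogenes, 79 in all, of which 2 had 10 reads in a sample.

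Samples were grouped by the labels. VHL-KO was compared with VC in edgeR 4.0.16 (R 4.3.3; TMM factors, quasi-likelihood test, two-sided, Benjamini-Hochberg adjustment over all 17401 genes reaching 10 reads in some sample, threshold 0.05). CPM are scaled by TMM factors, and SE is that of the log2 fold change. No list was tested. Alternatives were scaling by upper quartile, by relative log expression or by library size only, DESeq2 1.42.0, other filters (1 read in any or 10 in every sample), each replicate left out, the replicate number as a block, and offsets for GC content and length (natural splines, 5 degrees of freedom) with and without the block. Positions, lengths, GC content and overlaps came from GENCODE release 44 on GRCh38, which matched 17355 tested genes and all 78 members. For promoters with several RefSeq windows the window nearest to the canonical start was used. Python 3.11.15 with matplotlib 3.10.9 made the figures.

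The members and lists were chosen with earlier results of these data known. Genes named are VHL; per subunit the 8 largest rises and falls past the threshold and the 3 highest and 3 lowest by CPM per kb; MRPS30, the 3 MRPS18 genes and MRPS36; members that failed the filter; the 2 largest rises and falls of other lists; and all ribosomal proteins with other symbols and rRNAs. The lists of cytosolic ribosomal proteins and respiratory chain subunits were taken by symbol after the data were seen.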

Additional observations from a re-analysis of the deposited data

How the results depend on the processing

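With upper quartile factors 7 MRPS genes were lower, and the medians of MRPL, MRPS and all tested genes were 0.002, -0.032 and 0.102. With library size alone 4 MRPL genes were higher and 21 MRPS genes lower, and these medians were -0.304, -0.334 and -0.204. These factors change the scale of every gene alike. The median of all tested genes was 0.015 with relative log expression factors and with DESeq2, -0.032 with at least 1 read in any sample (28573 genes) and -0.03 where every sample had to reach 10 reads; the MRPS median was -0.18 with at least 1 read. With each replicate left out in turn, 7 to 12 MRPL genes were higher and 16 to 18 lower, 5 to 7 MRPS genes were higher and 9 to 12 lower (25.5% to 28.8% and 28.0% to 31.1% of all tested genes), and the medians ranged from -0.133 to -0.068 (MRPL), -0.177 to -0.108 (MRPS) and -0.033 to 0.01 (all). The 7 higher MRPL genes came with VC replicate 1 or VHL-KO replicate 2 removed. Among members with at most 20% of exonic bases inside other genes, an alternative chosen after seeing the data, 9 MRPL genes were higher and 16 lower, and 3 MRPS genes were higher and 8 lower, of 39 and 19 tested (27.6% higher and 33.6% lower among all tested genes with so little overlap).

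Deviations of same-numbered samples from their group means had correlations of 0.123, -0.064 and 0.0572, beside -0.145 to 0.0429 for other pairs. With 3 samples per group this cannot decide whether the numbers pair the samples. With the replicate number as a block, 12 MRPL genes were higher and 18 lower and 6 MRPS genes were higher and 13 lower. With offsets for GC content and length, 3 MRPL genes were higher and 32 lower with and without the block, with medians of -0.298 (MRPL) and -0.206 (MRPS), or -0.299 and -0.207 with the block; the cause was not tested.

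Signs turned in 14 of the 72 tested genes named by rule, and with the offsets also in SLC5A3 (0.482), CDH6 (0.480) and KRT18 (-0.109), which are outside that rule. With the offsets, and with the block added, log2 fold changes were -0.733 and -0.732 (AURKAIP1), -0.128 and -0.128 (GADD45GIP1), -0.135 and -0.135 (MRPL12), -0.182 and -0.182 (MRPL23), -0.107 and -0.107 (MRPL24), -0.431 and -0.439 (MRPL38), -0.503 and -0.501 (MRPL41), -0.016 and -0.013 (MRPL51), -0.45 and -0.441 (MRPL54), -0.354 and -0.354 (MRPL55), 0.18 and 0.189 (MRPS18C) and -0.599 and -0.598 (MRPS34). With library size alone they were -0.041 (AURKAIP1), -0.049 (MRPL51) and -0.0 (MRPS34), with upper quartile factors 0.056 (CHCHD1), and without VC replicate 2 0.002 (MRPS18A). Depth limits the genes under 10 CPM most, where the SE was 0.24 for MRPS24, 0.74 for TSFM and 0.90 for PECAM1.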
